A study of Mus musculus with 3 samples.

Results

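Long domains of H3K27me3 were examined in mouse kidney as regions of at least 2500 bp with a mean fragment pileup below 40, on chromosomes 1 to 19. Long peaks of the 2 deposited peak lists that overlapped were counted as 1 region, which gave 945 regions among 20820 regions of any length (4.54%). Of these, 754 were long in the ADA-treated list alone, 67 were long in both lists and 124 were long in the untreated list alone. Kidney of C57BL/6 mice gave 1 ADA-treated H3K27me3 library, 1 untreated H3K27me3 library and 1 untreated input sample, whose own signal was not examined here. ADA is written as in the labels, which do not expand it, and they give no dose, duration or age of the mice, nor how many mice a library pools. The pod-SAHH-/- mice named in the series title are not analysed here. The regions were chosen by length and pileup, so both are given as descriptions, and with 1 library a group no difference between the libraries was tested.

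H3K27me3 is trimethylation of a lysine in the tail of histone H3, placed by the Polycomb repressive complex that contains EZH2 or EZH1 and removed by demethylases such as KDM6B. In adult tissues it covers the CpG-rich promoters of silent developmental regulators, often as domains much wider than a single nucleosome. Whole kidney holds many cell types, so a mark in more cells and more of the mark in each cell cannot be told apart here.

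From 20602041 ChIP fragments, the ADA-treated list gave 17544 peaks over 17.7 Mb on chromosomes 1 to 19. From 18849785 fragments, the untreated list gave 8061 peaks over 7.32 Mb. Peaks past the length minimum numbered 824 in the ADA-treated list, 4.70% of its peaks, and 191 in the untreated list, 2.37% of its peaks. The ratio of the 2 lists was 4.31 for long peaks, 2.18 for all peaks and 1.09 for ChIP fragments. Both lists begin at a pileup of 10, close to the median pileup of all peaks (11.6 (ADA-treated) and 10.7 (untreated)). The absence of a peak thus means only that none was called at or above this floor, and does not give the pileup there. The part of the number of peaks called in the counts below was not tested on its own. Of 18 markers of proximal tubule, podocyte, loop, distal and collecting duct cells, none lay in a long region, beside 4.46% of all protein-coding genes, a share at which few of 18 genes would. An ADA-treated peak of any length overlapped 8 of them (51.4% of all genes), and an untreated peak overlapped 4 (26.8% of all genes).

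The start sites of several genes that lie in long regions are shown as the 250 bases before the annotated start, from RefSeq (GRCm38.p6), 5′ to 3′ on the strand of the gene, with CG dinucleotides in capitals, because CpG content is the sequence feature that the text turns to later. Junb and Cebpb (immediate early transcription factors) and Pim3 (a kinase) have CpG-rich windows, while the windows of Trpm8 and Apoe, in 2 of the regions described first, hold few CpGs.
Junb: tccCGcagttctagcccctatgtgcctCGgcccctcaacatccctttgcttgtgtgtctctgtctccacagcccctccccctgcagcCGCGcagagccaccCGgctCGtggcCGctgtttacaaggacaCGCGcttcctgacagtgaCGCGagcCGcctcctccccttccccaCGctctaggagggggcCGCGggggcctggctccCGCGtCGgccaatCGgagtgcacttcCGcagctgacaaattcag
Cebpb: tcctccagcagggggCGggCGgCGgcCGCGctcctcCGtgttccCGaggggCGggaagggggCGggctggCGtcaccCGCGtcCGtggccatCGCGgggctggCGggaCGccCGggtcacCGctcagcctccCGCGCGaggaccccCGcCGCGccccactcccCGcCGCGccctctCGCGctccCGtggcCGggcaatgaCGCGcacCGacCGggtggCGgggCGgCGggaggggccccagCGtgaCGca
Pim3: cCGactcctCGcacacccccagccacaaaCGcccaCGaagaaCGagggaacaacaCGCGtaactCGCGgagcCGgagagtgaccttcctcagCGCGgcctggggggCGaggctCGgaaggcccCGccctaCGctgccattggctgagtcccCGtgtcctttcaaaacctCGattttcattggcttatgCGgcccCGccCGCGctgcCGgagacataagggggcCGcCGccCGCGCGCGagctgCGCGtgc
Hjurp: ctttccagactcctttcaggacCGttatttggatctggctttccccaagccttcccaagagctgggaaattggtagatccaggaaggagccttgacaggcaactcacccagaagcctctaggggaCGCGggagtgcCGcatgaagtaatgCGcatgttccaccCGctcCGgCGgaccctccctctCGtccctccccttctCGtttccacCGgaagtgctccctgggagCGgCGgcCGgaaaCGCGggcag
Apoe: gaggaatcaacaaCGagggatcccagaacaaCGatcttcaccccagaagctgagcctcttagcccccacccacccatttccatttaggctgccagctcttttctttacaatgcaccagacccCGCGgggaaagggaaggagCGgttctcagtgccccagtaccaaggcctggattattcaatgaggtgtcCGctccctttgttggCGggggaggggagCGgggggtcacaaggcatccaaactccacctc
Trpm8: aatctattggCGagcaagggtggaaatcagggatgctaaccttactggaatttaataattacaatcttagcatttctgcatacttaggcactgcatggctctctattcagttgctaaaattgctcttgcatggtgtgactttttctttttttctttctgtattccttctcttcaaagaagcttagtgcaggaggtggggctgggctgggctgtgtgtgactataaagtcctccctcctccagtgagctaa
The Junb window lies at chr8:84978749-84978998 on the minus strand, holds 20 CpGs and belongs to a 4760 bp region long in the ADA-treated list. The Cebpb window, at chr2:167688665-167688914 on the plus strand, holds 41 CpGs and lies in a 4328 bp region long in both lists. For Pim3 the window is chr15:88861944-88862193 on the plus strand, with 31 CpGs, in a 2569 bp region long in the ADA-treated list. Hjurp has 16 CpGs at chr1:88277580-88277829 on the minus strand, Apoe has 8 at chr7:19699189-19699438 on the minus strand, and Trpm8 has 1 at chr1:88306485-88306734 on the plus strand.

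Hairpins of miRNA genes lay in 16 of the regions, 19 hairpins of the 919 in the RefSeq table, beside 921 of 20665 protein-coding genes with a long region. In these, 18 hairpins were in regions long in the ADA-treated list alone and 1 was in a region long in both lists. None was in a region long in the untreated list alone. In the same order, all 945 regions were divided into 754, 67 and 124. Some hairpins shared a region, so they are not independent counts. The mature strands below are those with a well-known kidney, epithelial or neural role or family, with the seed (bases 2 to 8) in capitals. No seed was shared among them.
mmu-miR-192-5p: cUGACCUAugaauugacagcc
mmu-miR-194-5p: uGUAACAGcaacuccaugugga
mmu-miR-26b-5p: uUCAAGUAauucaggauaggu
mmu-miR-203-3p: gUGAAAUGuuuaggaccacuag
mmu-miR-92b-3p: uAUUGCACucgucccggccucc
mmu-miR-219a-5p: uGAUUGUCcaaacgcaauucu
Mir192 and Mir194-2, neighbouring genes of miRNAs abundant in kidney epithelium, lay together in a 5528 bp region at chr19:6260306-6265833 beside Atg2a, an autophagy lipid transfer protein. That region had an ADA-treated pileup of 11.44 and no untreated peak. Mir26b lies within Ctdsp1, and its 4719 bp region had an ADA-treated pileup of 14.81 and no untreated peak. Mir203, whose miRNA is known from skin epithelium, lay in a 7857 bp region at Aspg that untreated peaks covered over 11.1% of its length. The Mir92b region was covered over 27.5% and the Mir219a-1 region over 24.5% by untreated peaks. Hairpins on opposite strands of one place (Mir203 with Gm51289, and Mir219a-1 with Mir219c) are counted separately and cannot be told apart by ChIP. Of the 18 hairpins in regions long in the ADA-treated list alone, 6 were in regions without an untreated peak, beside 334 of all 754 such regions.

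The longest region by far joined the 3′ end of the Ugt1a cluster with Mroh2a and Hjurp over 81117 bp at chr1:88211382-88292498 (GRCm38), and it was long in both lists. Ugt1a genes encode UDP-glucuronosyltransferases, which conjugate bilirubin and drugs and share their last exons, and Hjurp encodes the chaperone of the centromeric histone CENP-A. It held 4 ADA-treated peaks with pileups up to 18.45 that covered 94.6% of its length, and 1 untreated peak with a pileup of 17.78 that covered 99.9%. The outer edges of the 2 lists differed by 9 bp on one side and 46 bp on the other. The next longest, 16226 bp at chr1:88294482-88310707, reached into Trpm8, the cold- and menthol-gated cation channel, with a pileup of 14.97 over the ADA-treated peak and 15.71 over the untreated peak. Among the 67 regions long in both lists, only 6 had a higher untreated than ADA-treated pileup, and Trpm8 was one of them. These adjacent domains thus had nearly the same extent and pileup in both libraries. Peaks were called without a local background, and the input signal at these domains was not examined.

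**Figure D1:**
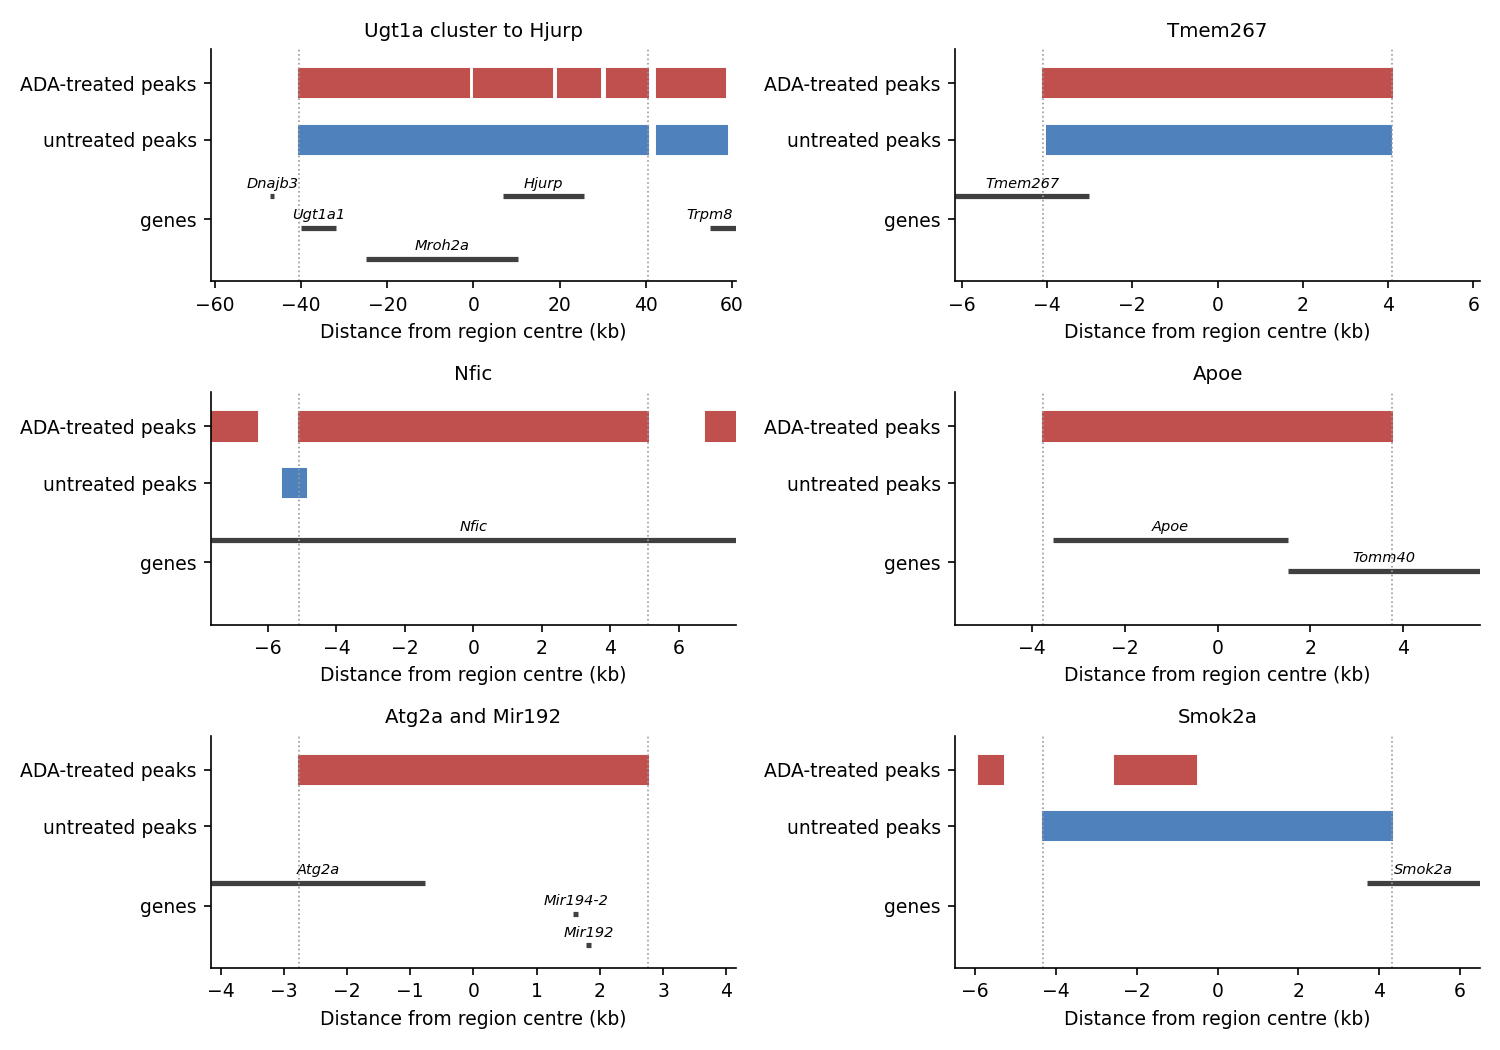
Peaks of the ADA-treated list (upper bars) and the untreated list (lower bars) and the annotated genes in 6 long regions, by distance from the region centre in kb. Dotted lines mark the ends of the region. Of the Ugt1a genes only Ugt1a1 is drawn. The Ugt1a to Hjurp and Tmem267 regions are covered in both lists, the Apoe and Mir192 regions have no untreated peak, and the untreated Smok2a region is covered over 23.0% by the ADA-treated list.

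Regions long in the ADA-treated list alone reached 10306 bp (median 3090 bp), with a median pileup of 12.42. Their median fold against the caller's constant background was 3.17. The longest ran from Atp5d, a subunit of the mitochondrial ATP synthase, into Midn, which encodes midnolin, a factor in proteasomal turnover of immediate early proteins. It lies at chr10:80144887-80155192, with an ADA-treated pileup of 15.23, and 3 untreated peaks with a pileup of up to 15.08 covered 27.9% of it. Nfic, a nuclear factor I transcription factor, carried 4 such regions, and the longest of them were neighbours. The one inside the gene, 10209 bp, had a pileup of 14.96 and was covered by untreated peaks over 2.15% of its length. The one holding the gene's start, 9924 bp, had a pileup of 21.02 and was covered over 32.1%. Crlf2, a receptor subunit for thymic stromal lymphopoietin, held its start site in an 8776 bp region at chr5:109550228-109559003 with a pileup of 16.78 and no untreated peak. Other long regions of this kind lay in Plec (plectin, a cytoskeletal linker, 8576 bp), at Bop1 and Scx (8561 bp, with scleraxis, a tendon transcription factor, whole inside it), at Prr12 and Prrg2 (8533 bp) and in Kif26a (8145 bp). Untreated peaks covered 11.1%, 19.6% and 7.79% of the first 3, and the Kif26a region had none.

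Apoe, the apolipoprotein of lipid transport, had the highest pileup of all 945 regions. Its region, chr7:19696020-19703559, spans 7540 bp, holds the whole of Apoe and the end of Tomm40, and had an ADA-treated pileup of 35.46, with no untreated peak. The next highest ADA-treated pileups among regions without an untreated peak were 22.04 at Csf2ra (a receptor subunit for granulocyte-macrophage colony stimulating factor), 20.65 at Atxn7l3 (a subunit of the SAGA deubiquitinase module), 20.28 in Ahnak2 and 20.17 in Pxn (paxillin, a focal adhesion protein). The gap between Apoe and these was larger than that between any of the others.

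Untreated peaks overlapped 420 of the 754 regions long in the ADA-treated list alone (55.7%, exact 95% interval 52.1% to 59.3%), and 334 had none. Among all ADA-treated peaks 27% were overlapped by an untreated peak, and among those under 2500 bp 25.4%. Intervals of this kind cover counting error only, and neighbouring regions are not independent. The median share of a region's length under untreated peaks was 10.7% (exact 95% interval 7.45% to 13.1%, quartiles 0% and 32.2%), and the highest was 89.6%. Summed over these regions, untreated peaks covered 471 of 2618 kb, or 17.98%. Another 145 regions were covered over 25 to 50% and 97 over 50% or more. The regions most covered included those at Arid1b (a subunit of the SWI/SNF remodeller, 89.6%), Ajap1 (88.9%), Foxa2 (a pioneer transcription factor of endoderm, 87.4%) and Cux1 (85.7%). Those least covered among the overlapped were at Slc4a2, an anion exchanger (0.728%), Nfic (2.15%), Dhx58 and Kat2a (2.88%), Mtch1 (4.77%) and Ahnak2 (5.39%).

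Regions long in the untreated list alone had a median length of 2812.5 bp, a median pileup of 10.81 and a median fold of 2.78. ADA-treated peaks overlapped 96 of these 124 regions (77.4%, 69.0% to 84.4%). ADA-treated peaks overlapped 59% of all untreated peaks and 58.4% of those under 2500 bp. The median covered share was 34.0% (27.9% to 41.7%, quartiles 8.55% and 55.4%), and 28 regions had no ADA-treated peak. The longest, 8825 bp at chr4:122018603-122027427 and 7961 bp at chr4:122032779-122040739, overlapped no annotated gene and were covered by ADA-treated peaks over 20.5% and 18.9%. Smok2a, a sperm motility kinase gene with a near-identical neighbour, Smok2b, was reached by regions of 8647 bp, covered over 23.0%, and 6452 bp, with no ADA-treated peak. How reads from near-identical copies were placed is not stated, so values at these genes and at the Ugt1a cluster are uncertain. Among other genes, Nfkb2 with Psd had 6159 bp covered over 45.2%, Cyp26b1 (which degrades retinoic acid) 4988 bp covered over 35.9%, Shank3 4953 bp covered over 64.6% and Zc3h12a (an endoribonuclease of inflammatory mRNAs) 4524 bp covered over 4.24%. Coverage was highest at Yy1, a transcription factor (95.8%), Cdkn1c, an imprinted cell cycle inhibitor (95.1%), Gpr153 (86.8%), Actg1, the cytoplasmic gamma actin (85.8%), and Kcnn1 (85.6%), and lowest among the overlapped at Jag2, a Notch ligand (1.28%).

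**Figure D2:**
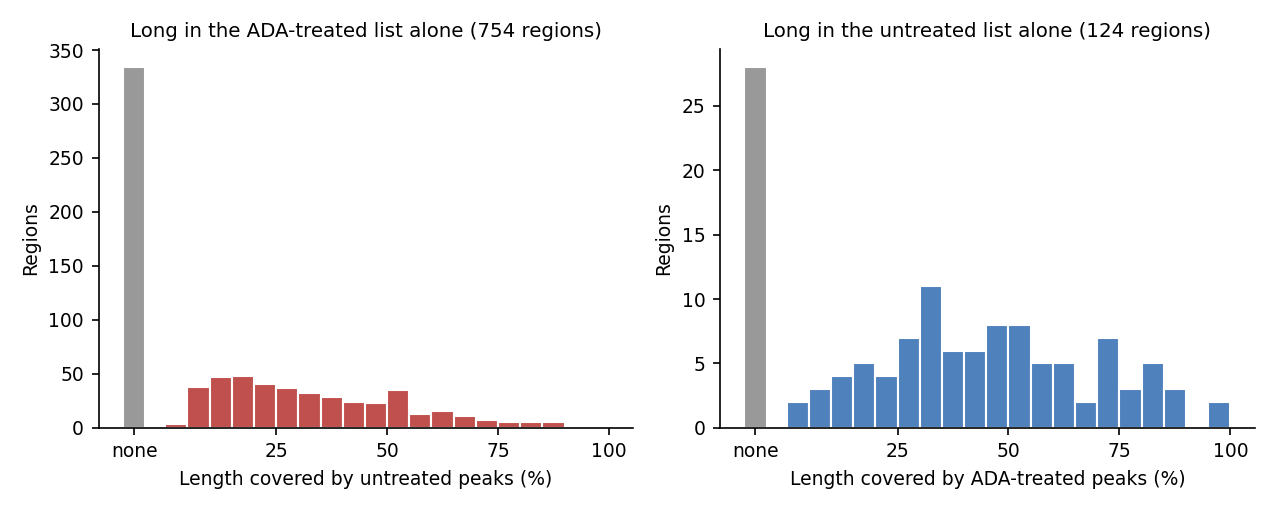
Number of long regions by the share of their length (%) covered by peaks of the other list, for the 754 regions long in the ADA-treated list alone (left, covered by untreated peaks) and the 124 long in the untreated list alone (right, covered by ADA-treated peaks). The grey bar counts regions with no peak of the other list, 334 on the left and 28 on the right.

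The order of these shares was not the same under every setting. With the ADA-treated list cut to its strongest peaks by the caller's p, as many as the untreated list holds, untreated peaks overlapped 66.9% of the regions long in the ADA-treated list alone, and ADA-treated peaks overlapped 53.0% of those long in the untreated list alone. That setting changes the number and the strength of the peaks and also the regions, to 471 and 134, so which of these turned the order was not tested. When only peaks of the other list with a −log10 p of at least 5 were counted, the shares were 3.98% for regions long in the ADA-treated list alone and 43.5% for those long in the untreated list alone. That limit kept 32.4% of the ADA-treated peaks and 5.69% of the untreated peaks, so few untreated peaks of any kind could count.

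Where both lists had a peak in a region, the ADA-treated pileup was the higher one in 384 of 420 regions long in the ADA-treated list alone (91.4%), in 61 of 67 long in both lists (91.0%) and in 81 of 96 long in the untreated list alone (84.4%). Among all overlapped peaks it was higher in 86.3% of the ADA-treated and 86.6% of the untreated ones. A pileup is the caller's mean for each peak, and where several peaks of a list lay in a region the highest was used. No 2 peaks of a list lay closer than 1176 bp (ADA-treated) or 1287 bp (untreated). A peak may thus span shorter stretches of low signal, and whether these enter the mean is not stated. The smallest gap was wider in the untreated list, and its part in the peak lengths was not tested. In a region long in 1 list, the other list's value belongs to a shorter stretch, and regions where the other list has no peak do not enter. In the 96 regions long in the untreated list alone, for example, the ADA-treated peaks had a median longest length of 1586.5 bp. The ADA-treated library had 1.09 times as many ChIP fragments, and the pileups are not scaled to depth. Its fragment length in the caller was shorter, 293 bp against 321 bp (untreated). The constant background behind the deposited fold came to 3.24 fragments in each list. The part of depth in the pileups was not tested.

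Regions long in both lists had a median length of 4168 bp, of which ADA-treated peaks covered a median of 96.8% and untreated peaks 83.8%. The stretch under peaks of both lists had a median of 2782 bp, 78.0% of a region, and both edges lay within 100 bp of each other in 8 regions. After the Ugt1a and Trpm8 domains, the longest shared stretches were 8073 bp at the end of Tmem267, 5404 bp at Gm40504, 4761 bp at Mn1 and 4292 bp at Brd2 (a BET bromodomain protein) with H2-DMa (peptide loading of MHC class II). Asic4, Zfp992, and Sipa1 (a Rap GTPase activator) with Pcnx3 were among the 10 longest as well. At Tmem267 the pileup was 21.19 (ADA-treated) and 14.98 (untreated), and at Brd2 it was 15.34 (ADA-treated) and 12.21 (untreated).

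Overlap with the other list went up with peak length in the ADA-treated list through every length class. The share was 11.7% under 600 bp, 53.1% from 2500 to 2999 bp, 57.5% from 3000 to 3999 bp and 75.9% from 4000 bp. In the untreated list it was 52.0% under 600 bp, 63.4% from 600 to 999 bp, 55.5% from 1000 to 1499 bp, 80.4% from 2500 to 2999 bp, 90.7% from 3000 to 3999 bp and 96.0% from 4000 bp. A longer peak touches another by length alone, so the covered length was set beside it. Untreated peaks covered 25.4% of the length of all long ADA-treated peaks and 18.5% of the length of shorter ones. Without the Ugt1a and Trpm8 regions the share for long peaks was 22.99%, and it was 22.7% for peaks of 1500 to 1999 bp, 23.9% for 2000 to 2499 bp and 22.9% for 2500 to 2999 bp, so the covered share was about level above 1500 bp. ADA-treated peaks covered 59.0% of the length of all long untreated peaks, 53.3% without those regions, and 46.3% of the length of shorter ones.

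**Figure D3:**
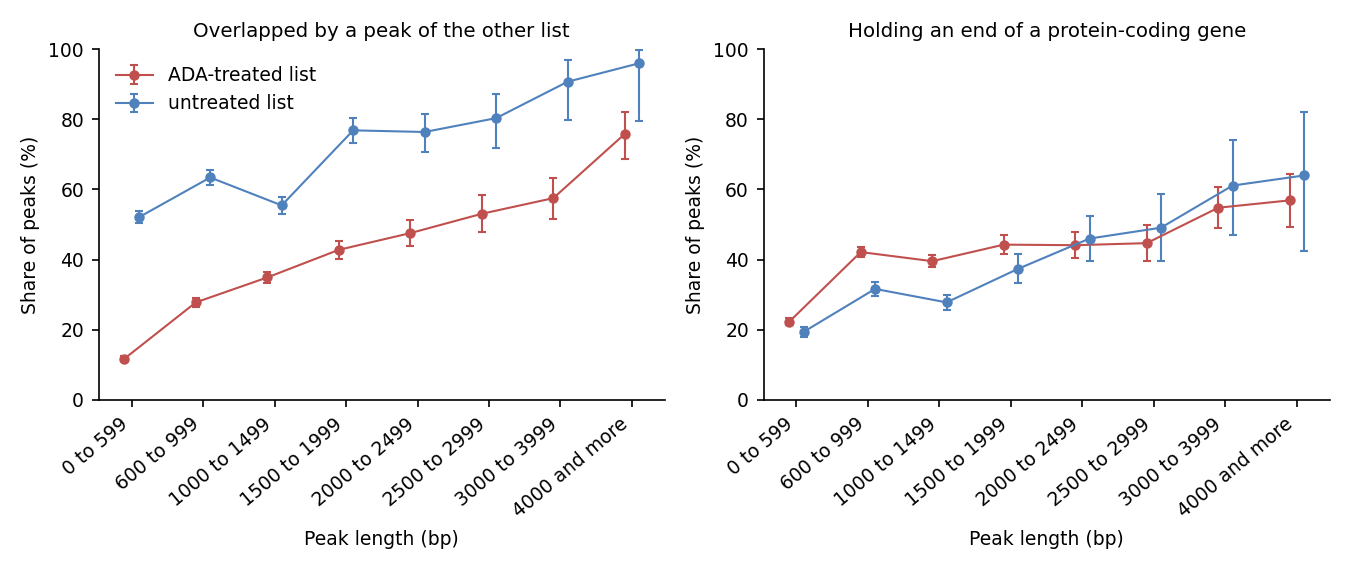
Share of peaks (%) by peak length in bp, in the ADA-treated list (red) and the untreated list (blue), with exact 95% intervals. Left, peaks overlapped by a peak of the other list, from 11.7% to 75.9% in the ADA-treated list and 52.0% to 96.0% in the untreated list. Right, peaks that hold an annotated end of a protein-coding gene.

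A protein-coding gene body was overlapped by 888 of the 945 long regions (94.0%), beside 83.8% of all ADA-treated peaks, 81.8% of all untreated peaks and 90.9% of ADA-treated peaks of 2000 to 2499 bp. In all, 141 overlapped more than 1, and 27 genes lay whole within a region. The gene table holds gene bodies and start sites only, so exons, introns and UTRs are not told apart. A gene end lay inside 480 regions (50.8%, 47.6% to 54.0%), beside 35.2% of all ADA-treated peaks and 27.2% of all untreated peaks. For long peaks alone the share was 50.8% (ADA-treated) and 54.5% (untreated), and for peaks of 2500 to 2999 bp it was 44.7% (ADA-treated) and 49.1% (untreated). Below the minimum, peaks of 2000 to 2499 bp had shares of 44.1% (ADA-treated) and 46% (untreated), close to those just above it. Of 931 regions where start sites could be assessed (the promoter table has none for chromosome 18), 393 held a protein-coding start site (42.2%), 143 held another gene end (15.4%), 338 lay within a gene (36.3%), 27 overlapped another kind of gene and 30 overlapped none. Start sites were inside 35.3% of all ADA-treated peaks and 27.7% of all untreated peaks, but inside 44.1% of ADA-treated peaks of 600 to 999 bp, so the share was not particular to long regions. Some start sites in the promoter table lie inside the annotated gene body and are not gene ends, which is why the start sites and other ends add up to more than the gene ends. The regions with the most gene ends after the Ugt1a domain were at Tmem210, Lrrc26 and Grin1 (6904 bp), H2-Ke6, Slc39a7 and Rxrb (6352 bp), Psd, Fbxl15 and Cuedc2 (4219 bp) and Mrps34, Nme3 and Mapk8ip3 (2913 bp), with 4 ends each, all long in the ADA-treated list alone.

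Around a start site, long regions leaned into the gene. Among regions long in the ADA-treated list alone that held the start site of 1 gene, 212 of 282 extended further downstream than upstream (75.2%, 69.7% to 80.1%), with medians of 2234.5 bp downstream and 971.5 bp upstream. In the untreated list alone it was 28 of 42 (66.7%, 50.5% to 80.4%). Shorter peaks had nearly the same shares, 74.6% (ADA-treated) and 67.6% (untreated), so the direction was not particular to long regions. In regions long in the ADA-treated list alone, untreated peaks covered 35.5% of the start sites, at most 40.4% at 300 bp downstream, and 9.22% at 2000 bp downstream. In regions long in the untreated list alone, ADA-treated peaks covered 80.95% of the start sites, 42.9% at 1000 bp and 11.9% at 2000 bp downstream. Over all 16457 start sites, ADA-treated peaks covered 37.0% and untreated peaks 12.8%. That the longer peak reaches past the other list's peak follows from the choice by length, and the decline away from the start was also present over all start sites, to 2.81% (ADA-treated) and 1.17% (untreated) at 2000 bp downstream.

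**Figure D4:**
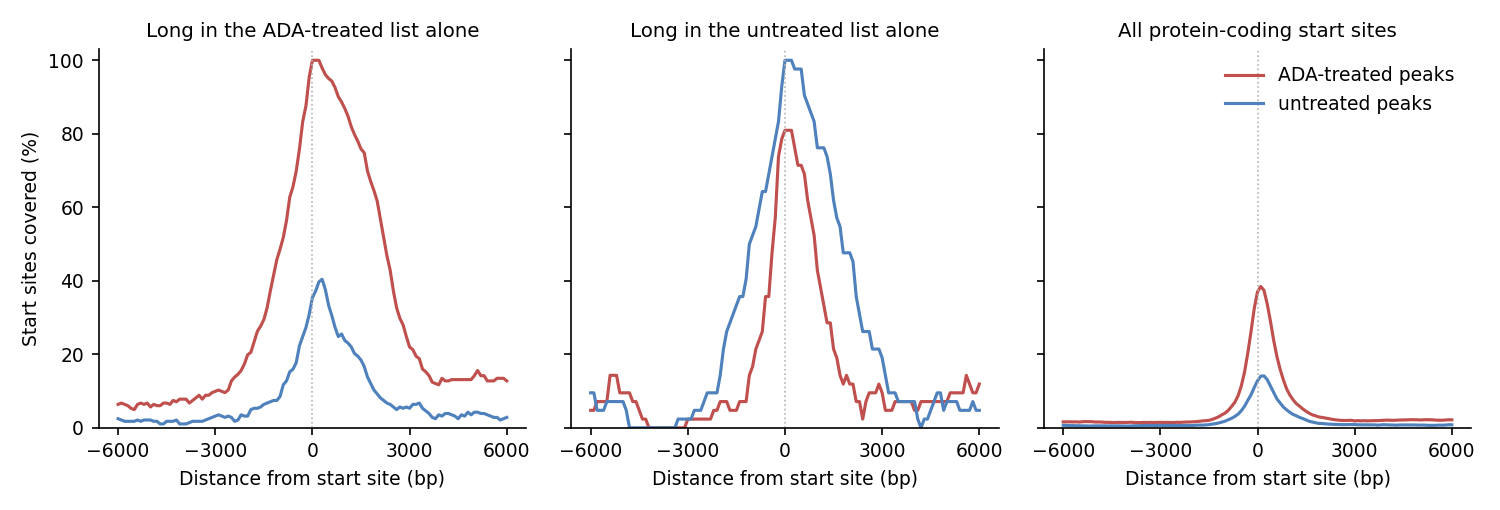
Share of protein-coding start sites (%) covered by ADA-treated peaks (red) and untreated peaks (blue), by distance from the start site in bp (positive into the gene), for 282 regions long in the ADA-treated list alone, 42 long in the untreated list alone and all 16457 start sites. The list that chose the regions is at 100% at the start by construction, and the other list peaks near it, at 40.4% in the left panel and 80.95% in the middle panel.

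The promoter windows in long regions were GC-rich, but so were those in shorter peaks. A window could be matched for 735 of the 910 long-region genes off chromosome 18 (80.8%) and for 81.7% of all protein-coding genes there. At the 402 start sites in long regions the median GC content of the 250 bases before the start was 65.6% and the median CpG number 19, against 55.6% and 10 over all start sites. Windows with at least 50% GC and an observed over expected CpG ratio of at least 0.6 made up 68.9% (64.1% to 73.4%) of those in long regions, 80.5% of those in shorter ADA-treated peaks, 85.7% of those in shorter untreated peaks and 20.4% of those in no peak. The share of CpG-island-like start sites in long regions was thus below that in shorter peaks of either list. Trpm8, with 1 CpG in the sequence above, and Apoe, with 8, are examples outside that class. Letters of 6 short motifs were searched on both strands, and none of them contains another. GGGCGG, the GC box, was found in 69.7% of windows in long regions, 75.9% of those in shorter ADA-treated peaks, 79.0% of those in shorter untreated peaks and 43.6% of all windows. In the same order of windows, TATAAA was found in 5.72%, 3.98%, 3.41% and 12.5%, and CACGTG in 10.2%, 9.82%, 9.86% and 6.73%. CCAAT was found in 31.8% of windows in long regions and 36.3% of all windows, TGACTCA in 2.99% and 3.998%, and TGACGTC in 3.23% and 3.51%. For the motifs given for shorter peaks above, the difference from all windows was thus shared with shorter peaks. It was not shared for every motif listed after them. The first of those was found in 35.5% (shorter ADA-treated peaks) and 36.0% (shorter untreated peaks) of windows, close to all windows. In the same order, the next was found in 2.02% and 1.78%, below all windows as in long regions. The last was found in 5.05% and 5.09%, above all windows. These letters describe the windows and show no bound factor.

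A long region overlapped 921 of 20665 protein-coding genes, or 4.46%. The share was 3.93% for regions long in the ADA-treated list and 1.01% for regions long in the untreated list, while any ADA-treated peak overlapped 51.4% of genes and any untreated peak 26.8%. Gene bodies with a long region had a median length of 15.8 kb, close to the 17.5 kb of all protein-coding genes. Of the 921, 98 had more than 1 long region and 5 had at least 4. Gse1, a corepressor subunit, had 9 regions of 34066 bp in total, of which 8 were long in the ADA-treated list alone and 1 in the untreated list alone. Plec had 5, and Nfic, Zfpm1 (FOG1, a cofactor of GATA factors) and Bahcc1 had 4 each.

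Immediate early and feedback regulators, among them genes that growth factors and stress induce within minutes, had the highest share of the gene lists. The lists were chosen with earlier results of these data known, so their order is a description only. A long region overlapped 25 of 83 (30.1%, 20.5% to 41.2%). Of these, 23 had a region long in the ADA-treated list and 6 had one long in the untreated list, with 4 in each. Over all 921 genes with a long region, 100 were in each. Any ADA-treated peak overlapped 90.4% of the list and any untreated peak 67.5%. The longest after Midn was at Dusp4 (a MAP kinase phosphatase, 5099 bp), with an ADA-treated pileup of 12.01 and no untreated peak. Junb (a subunit of AP-1) had 4760 bp, with a pileup of 12.59 (ADA-treated) and 12 (untreated), whose peaks covered 37.7%. Klf13 had 4478 bp, with a pileup of 23.21 (ADA-treated) and 11.97 (untreated). Irs2 (an insulin receptor substrate, 4448 bp) and Cebpb (4328 bp) were long in both lists. For Cebpb the pileup was 21.53 (ADA-treated) and 13.88 (untreated), and for Irs2 it was 15.91 (ADA-treated) and 12.03 (untreated). Egr1, on chromosome 18, was also long in both, with ADA-treated peaks over 99.0% and untreated peaks over 87.9% of its 3298 bp and pileups of 14.02 (ADA-treated) and 10.98 (untreated).

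Histone and chromatin regulators followed with 15 of 77 genes (19.5%, 11.3% to 30.1%), all 15 by a region long in the ADA-treated list and 3 also by one long in the untreated list. Any ADA-treated peak overlapped 96.1% of them. Kdm6b, the H3K27 demethylase, had the longest, 7519 bp, with an ADA-treated pileup of 14.13 and untreated peaks over 15.5% of it. Hdac5 (a class II deacetylase, 5689 bp) and Brd2 (5463 bp) were long in both lists. Cbx8, a reader of H3K27me3 in Polycomb repressive complexes, had 3777 bp with a pileup of 16.15 (ADA-treated) and 11.27 (untreated). Kdm4b, an H3K9 demethylase, had 3598 bp with no untreated peak.

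Developmental transcription factors, the classic Polycomb targets, came next with 15 of 107 genes (14.02%, 8.06% to 22.1%). Of these, 11 were overlapped by regions long in the ADA-treated list, 4 by regions long in the untreated list and none by both. Over all 921 genes with a long region, 100 were overlapped by both, so few of 15 would be. Most of the list had some peak, 86.9% (ADA-treated) and 58.9% (untreated). Hoxd11 had the longest region, 3890 bp with a pileup of 15.9 (ADA-treated) and 11.36 (untreated), whose peaks covered 19.5% of it. Gata2 had 3363 bp and no untreated peak. Neurod2 had 3237 bp, of which untreated peaks covered 68.7%, and Foxd3 had 3166 bp, of which they covered 51.7%. Pax5 had 3049 bp and no untreated peak. Irx2, long in the untreated list alone, had 3397 bp. The pileup was 17.87 for the ADA-treated peak, which covered 30.6% of it, and 11.39 for the untreated peak.

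The other lists were near or below the share of all genes. Lipid transport and lysosome genes had 2 of 30, Apoe and Grn (progranulin, 4767 bp, no untreated peak). RNA processing factors had 1 of 63, Ptbp1, a splicing regulator, whose region was long in the untreated list alone and had pileups of 20.49 (ADA-treated) and 11.84 (untreated). The kidney transport and metabolism list had 1 of 50, and ribosomal protein and translation genes had 0 of 53 (exact upper limit 6.72%). A peak of any length was common in the RNA processing list, 87.3% (ADA-treated) and 41.3% (untreated), and in the ribosomal and translation list, 69.8% (ADA-treated) and 35.8% (untreated). Over all protein-coding genes it was 51.4% (ADA-treated) and 26.8% (untreated), so peaks under the length minimum were the more common ones there too.

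**Figure D5:**
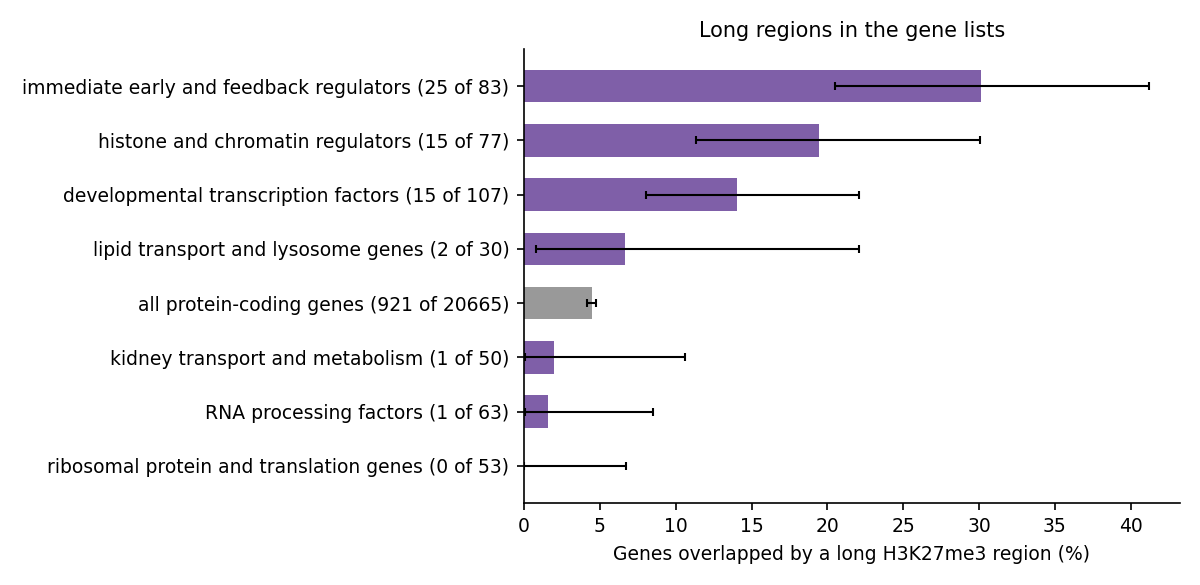
Share of genes (%) overlapped by a long H3K27me3 region of either list, for 7 gene lists and for all protein-coding genes (grey), with exact 95% intervals and the counts in brackets. Immediate early and feedback regulators are highest at 30.1%, all protein-coding genes are at 4.46%, and ribosomal protein and translation genes are at 0. The lists were chosen with earlier results of these data known.

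Joined at up to 100 kb, the long regions formed 595 groups, of which 164 held more than 1 region and together 514 regions (54.4%). No such grouping was made for shorter peaks. The largest group, from Rexo1 to Ankrd24 at chr10:80546308-81644952, held 38 regions over 1099 kb, 28 long in the ADA-treated list alone, 4 long in both lists and 6 long in the untreated list alone. Chromosome 10 also had the highest share of long peaks, 8.08% of its ADA-treated peaks and 4.66% of its untreated peaks. The median number of protein-coding genes within 50 kb was 4 for long regions, 3 for shorter ADA-treated peaks and 2 for shorter untreated peaks.

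The length minimum cut through a continuous range. Just inside it were ADA-treated peaks of 2500 bp at Cxxc5 and 2502 bp at Fam20c, and untreated peaks of 2500 bp at Yy1 and 2505 bp at Gpr153 and Rhoc. Just outside were ADA-treated peaks of 2499 bp at Plekha6 and Clec11a and an untreated peak of 2478 bp at Kmt2b and Zbtb32, with 2487 and 2490 bp at places without a gene. The pileup limit left out 2 peaks in each list. At Sfi1 (chr11:3184014-3200057) the pileup was 76.26 (ADA-treated) and 77.15 (untreated), and at the ribosomal RNA sequence Rn18s-rs5 on chromosome 17 it was 1335 (ADA-treated) and 677 (untreated). No region reached near that range, the highest pileup inside the limit being the 35.46 of Apoe.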

How the data were processed

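H3K27me3 ChIP-seq of kidney gave 1 ADA-treated library, 1 untreated library and 1 input, grouped by the treatment and antibody labels. The authors called broad peaks with MACS 2.1.2 for each library separately and with an input for each, at a p threshold of 0.001 and without a local background, per the file headers. The headers name separate inputs, of 22100010 fragments for the ADA-treated list and 23891586 for the untreated list. The labels list 1 input sample, so at least 1 of these inputs is not among the samples. Libraries were amplified over 15 PCR cycles, per the labels' protocols. The deposited signal is the fragment pileup averaged by the caller for each peak. The deposited fold sets that pileup against a constant background, with 1 added to both. The deposited −log10 p-value and −log10 q-value are the caller's, although the headers say q was not calculated. No source used here names the aligner. In the submitters' processing notes the build is mm9 and the software CASAVA 1.4, but gene positions and unplaced sequence names fit GRCm38, which is used here with 1-based coordinates.

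Overlap needed at least 1 bp. Covered length, gene positions (RefSeq GRCm38.p6) and exact binomial (Clopper-Pearson) or order-statistic 95% intervals were computed with Python 3.11.15, pandas 2.3.3 and scipy 1.17.1, tested on simulated data and checked against bedtools 2.31.1, which gave the same covered length in all 945 regions. The named genes are those of the 15 longest regions, the 10 longest shared, the 10 longest untreated, the extremes of covered share and of ADA-treated pileup, those at the limits, and the 6 list members with the longest regions. Members and lists were chosen with earlier results of these data known. Genes with several regions, the miRNA genes and the printed start sites were chosen after their values were seen. Other length limits, a pileup limit, joining distances, p and q limits and gene rules were tried. Peaks on X, mitochondrial and unplaced sequences were outside the rule. Some genes that the naming rule picks are not reported here.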

Additional observations from a re-analysis of the deposited data

Results flagged for a closer look

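Outside chromosomes 1 to 19, 2 long ADA-treated peaks had no untreated peak over them. One lay on the unplaced sequence GL456216.1, 5287 bp long, with an ADA-treated pileup of 17.08. The other lay on chromosome X at chrX:170673636-170677960, 4325 bp long, with an ADA-treated pileup of 16.08. Both came up because they show a signal in sequences that the comparisons did not use. In all, 15 ADA-treated and 10 untreated long peaks fell outside the rule, and 13 of the ADA-treated ones and 10 of the untreated ones were overlapped by a peak of the other list.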

How the results depend on the processing

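Of 69 values under another setting, 32 stayed within 1.5 times the count or inside the exact interval of the share as reported, and 37 moved beyond it. No pileup limit changed nothing beyond that range, and joining peaks within 1 kb changed no value, since the smallest gap between peaks was 1176 bp (ADA-treated) and 1287 bp (untreated). In the pairs below, the first share belongs to regions long in the ADA-treated list alone and the second to those long in the untreated list alone.

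With a minimum of 2000 bp there were 1780 regions and 1570 genes, overlapped shares of 47.8% and 67.0%, median covered shares of 0% and 27.7%, a gene end in 47.1%, and 25 developmental and 29 chromatin genes. With 3000 bp there were 513 regions and 539 genes, overlapped shares of 61.8% and 88%, a gene end in 55.6%, and 6 developmental genes. Joining peaks within 2 kb, a setting chosen after seeing the data, as were those of the gene lists and the values without the longest regions, gave 1536 regions, 1476 genes, an overlapped share of 50.1% for the first class and median covered shares of 0.305% and 25.2%. When only the strongest ADA-treated peaks were kept, as many as the untreated list holds, the overlapped shares were 66.9% and 53.0%, the median covered shares 18.96% and 10.1%, and a gene end lay in 58.6%; the order of the 2 classes was then turned round for both shares, from 55.7% and 77.4% overlapped and medians of 10.7% and 34.0% as reported. Counting only peaks of the other list with a −log10 p of at least 5 gave overlapped shares of 3.98% and 43.5% and median covered shares of 0% and 0%. With q of at most 5% the overlapped shares were 4.64% and 64.5% and the first median 0%. Requiring at least 50% of the other list's peak inside gave 51.9% for the first class. A gene end inside gave 603 genes, and a whole gene inside 27. A gene end of any gene lay in 57.2% of regions, and one within 2 kb in 67.8%. These settings change the construction of the regions or lists; no other cause was tested.

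No paired analysis was possible because each group has 1 library, which also leaves no replicate to omit. Absence of a peak means only that none was called at or above the pileup floor of 10. Pileups are means over a peak, and their counting error was not estimated.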
